A study of Homo sapiens with 6 samples.

Results

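The immediate early transcription factors were followed as 10 genes chosen by symbol, EGR1, FOS, FOSB, FOSL1, JUN, JUNB, ATF3, IER2, IER3 and MYC, each matching 1 row among the 57773 gene rows of the count table. They were measured in A549, an established cell line from a human lung adenocarcinoma, which serves as a model of non-small cell lung cancer. The rhSP-D group held 3 samples given recombinant human surfactant protein D at 10 µg/ml for 48 h, and the vehicle group held 3 samples given as much of the protein's elution buffer for the same time. Both groups were grown in medium with fetal bovine serum and antibiotics. Surfactant protein D is a soluble lectin of the lung's innate defence, made in large part by type II pneumocytes. Poly(A) RNA was sequenced to compare the transcripts of the groups.

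Immediate early genes are transcribed within minutes of a growth factor, serum or stress signal without the need for new protein, largely through ERK signalling and the serum response factor, and their RNAs are mostly short-lived. FOS and JUN family proteins pair through leucine zippers to form AP-1, whose composition decides which sites it binds and whether it activates, while EGR1 is a zinc finger factor and MYC a helix-loop-helix factor that works with MAX. A single time point long after the treatment began reads their sustained levels and not the first pulse of induction. In bulk RNA a change in the number of cells that express a gene cannot be told apart from a change in the RNA of each cell.

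Total counts ranged from 18599955 to 26030880 in the rhSP-D samples and from 11396193 to 19803697 in the vehicle samples. All 10 genes passed the filter on low counts, at 152 to 10184 counts per sample. KRT8 and KRT18, keratins of simple epithelium, were abundant, at means of 5145 and 4268 CPM (the deposited counts over the TMM-scaled library size) in rhSP-D and 5044 and 4125 CPM in vehicle. The epithelial adhesion gene CDH1 stood at 143 CPM in rhSP-D and 149 CPM in vehicle, whereas EPCAM and KRT19 were at 1.99 and 1.53 CPM in rhSP-D and 1.82 and 1.83 CPM in vehicle. KRT18 rose by 3.45% (edgeR adjusted p = 0.0131). Among leukocyte markers CD68, a lysosomal protein that many other cells also make, rose to 92.4 CPM in rhSP-D, against 84.4 CPM in vehicle (edgeR adjusted p = 0.0161), CD14 was at 3.60 CPM in rhSP-D and 3.90 CPM in vehicle, and PTPRC, CD3E and LYZ were near 0. Summed over 3 endothelial markers the samples held 0.0545 to 0.117 CPM in rhSP-D and 0 to 0.0994 CPM in vehicle, and over 6 fibroblast markers 13.2 to 14.2 CPM in rhSP-D and 10.5 to 14.8 CPM in vehicle, most of it COL1A1, with DCN at 0. On the first principal component of all genes, with 27.5% of the variance, vehicle replicate 1, the shallowest library, stood apart from the other 5, and without it the same 5 immediate early genes passed the test.

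The immediate early genes did not move together. In rhSP-D EGR1 fell by 11.1%, FOS fell by 10.3% and FOSB fell by 8.21%, JUNB and IER3 rose by 7.76% and 22.2% (JUNB not once trends on GC content and length are taken out, as given with its values), and JUN, FOSL1, ATF3, IER2 and MYC did not pass the test (edgeR's quasi-likelihood test, changed at a Benjamini-Hochberg adjusted p under 0.05 over all genes tested). Thus 2 of 10 rose and 3 fell, against 9.31% of 15848 genes tested that rose and 6.63% that fell, or 15.9% in either direction. Of all genes averaging 100 CPM or more 51.4% changed, and of the 8 immediate early genes at that level 5 did, a share near that background. The groups did not overlap for 6 of the 10, against 31.5% of genes tested at any level. All 6 averaged 100 CPM or more, a level for which this share was not computed, and JUN was among them by a narrow margin. The median log2 change of the 10 genes was -0.03, beside -0.006 over all genes tested. With scaling by library totals alone, 30.4% of changed genes over the whole table were higher in rhSP-D, against 58.4% with TMM factors, and the median of all genes lay at -0.05; the calls of the 5 genes were the same and JUN passed as well.

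**Figure D1:**
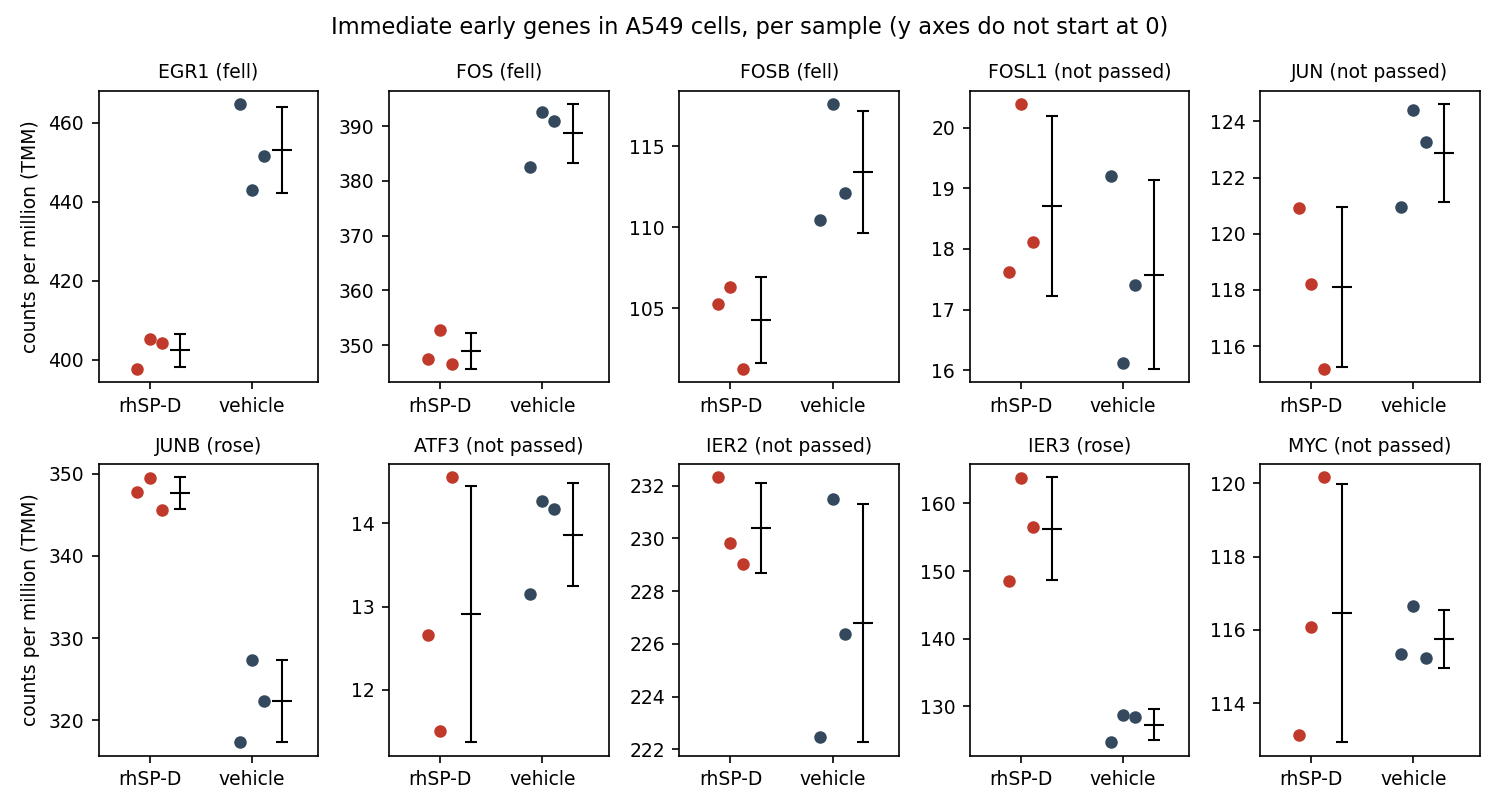
CPM, scaled by TMM, of the 10 immediate early genes in each sample, with the rhSP-D samples left and the vehicle samples right in each panel; bars are the mean and SD of 3 samples and the y axes do not start at 0. The groups lie apart for 6 genes, EGR1, FOS, FOSB and JUN with rhSP-D below and JUNB and IER3 with rhSP-D above.

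EGR1 encodes the zinc finger factor that binds GC-rich sites and is a standard readout of ERK activity. The gene (ENSG00000120738) lies on chromosome 5 at 138465490 to 138469315 of GRCh38, plus strand, in GENCODE 29. Its level was 398, 405 and 404 CPM in rhSP-D replicates 1, 2 and 3, against 465, 443 and 452 CPM in vehicle replicates 1, 2 and 3. Every rhSP-D sample lay below every vehicle sample, and the gap between the groups was wider than the range within either. The log2 change was -0.17 ± 0.02 (SE, n = 3 per group, edgeR adjusted p = 6.16e-07), with a 95% interval of the change from -13.7% to -8.48%.

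FOS and FOSB encode zipper proteins that need a JUN partner to bind DNA, and FOS is the subunit most closely tied to acute stimulation. FOS (ENSG00000170345, chromosome 14, 75278774 to 75282230, plus strand) had 348, 353 and 347 CPM in rhSP-D, against 383, 393 and 391 CPM in vehicle. The groups did not overlap, and the coefficient of variation was 0.943% in rhSP-D and 1.39% in vehicle, close to the 1.2% that counting alone gives at its mean count. Its log2 change was -0.16 ± 0.02 (SE, n = 3 per group, edgeR adjusted p = 1.87e-06). FOSB (ENSG00000125740, chromosome 19, 45467995 to 45475179, plus strand) had 105, 106 and 101 CPM in rhSP-D and 110, 118 and 112 CPM in vehicle. These groups lay apart by a smaller margin, and the log2 change of -0.12 ± 0.03 (SE, edgeR adjusted p = 0.00818) did not pass without vehicle replicate 2 (log2 change -0.09, edgeR adjusted p = 0.0854) or without rhSP-D replicate 3 (log2 change -0.11, edgeR adjusted p = 0.0524).

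The DNA just before the starts of the 3 genes that fell is shown beside that of JUNB. JUNB is the FOS partner that rose, though not once GC and length trends are taken out. Immediate early promoters are known to answer ERK and cAMP signals through short elements near the start. Capitals mark matches to the CArG box, the core that serum response factor binds, to TGACGT, the inner part of the cAMP response element (ACGTCA where it lies on the other strand), and to the TATA box sequence TATAAA, all searched on both strands. The sequences are RefSeq's for GRCh38.p14, plus strand, and each ends at the base before the first annotated start in RefSeq or GENCODE 29. EGR1 covers chr5:138465229-138465478, FOS chr14:75278578-75278773, FOSB chr19:45467746-45467994 and JUNB chr19:12791236-12791485.
EGR1: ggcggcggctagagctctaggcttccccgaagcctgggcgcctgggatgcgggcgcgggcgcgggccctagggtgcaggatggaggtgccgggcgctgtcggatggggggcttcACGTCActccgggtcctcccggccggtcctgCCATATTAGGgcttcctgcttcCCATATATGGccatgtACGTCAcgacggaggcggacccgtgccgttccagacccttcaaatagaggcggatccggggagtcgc
FOS: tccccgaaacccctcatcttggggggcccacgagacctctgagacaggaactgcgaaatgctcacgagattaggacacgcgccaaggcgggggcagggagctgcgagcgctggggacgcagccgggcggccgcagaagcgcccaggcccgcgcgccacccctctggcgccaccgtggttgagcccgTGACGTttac
FOSB: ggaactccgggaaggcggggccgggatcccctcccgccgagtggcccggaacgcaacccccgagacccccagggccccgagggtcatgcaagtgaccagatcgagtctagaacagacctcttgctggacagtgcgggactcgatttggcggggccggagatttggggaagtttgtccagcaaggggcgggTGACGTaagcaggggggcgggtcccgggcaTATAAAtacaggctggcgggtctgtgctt
JUNB: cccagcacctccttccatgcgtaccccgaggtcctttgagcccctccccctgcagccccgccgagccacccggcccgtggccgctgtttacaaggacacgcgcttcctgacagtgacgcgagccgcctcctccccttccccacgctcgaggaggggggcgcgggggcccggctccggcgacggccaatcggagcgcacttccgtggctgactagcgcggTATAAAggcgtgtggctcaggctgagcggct

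EGR1 held 2 CArG boxes, which begin 105 and 83 bases before the RefSeq start, and 2 matches to TGACGT. The windows of FOS and FOSB held no CArG box, and DNA farther than 250 bases before a start was not searched. Of 35116 promoter windows in the RefSeq table, each with 250 bases before and 50 after a start, 1.29% held a CArG box. TGACGT was present in EGR1, FOS and FOSB, 64 and 60 bases before the start in FOS and FOSB, and in 7.98% of all windows. Windows were matched for 7 members, and the other 4 of these, JUN, JUNB, ATF3 and IER2, held neither TGACGT nor a CArG box. The JUN window, set by the RefSeq start, lay wholly inside the JUN exon of GENCODE. It held no DNA before the GENCODE start of JUN, so it does not show which motifs that DNA holds. TATAAA lay 31 bases before the start of JUNB, 30 before that of FOSB and 33 before that of FOS, where it falls after the first GENCODE start and is not printed, and 11.5% of all windows held it. It was also found in ATF3, 230 bases before the start of the second of its 2 windows. The EGR site GCGNGGGCG was found in EGR1 itself and in 9.43% of windows, and the AP-1 site TGANTCA in no member and in 7.71% of windows. An NF-kB site was found in no member window and in 5.91% of all windows. FOSL1, IER3 and MYC were not among the windows matched. These are matches of letters in a short window, and binding was not measured. The genes with printed promoters were chosen by their calls, so the matches are a description. A link between a motif and a change was not tested.

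FOSL1 encodes FRA-1, a FOS-like protein without a strong activation domain that accumulates in invasive carcinoma cells. FOSL1 (ENSG00000175592, chromosome 11, 65892049 to 65900573, minus strand) had 17.6, 20.4 and 18.1 CPM in rhSP-D and 19.2, 16.1 and 17.4 CPM in vehicle. The groups overlapped, and the log2 change of 0.10 ± 0.08 (SE, edgeR adjusted p = 0.475) left an interval from -4.50% to 19.7%, which holds a rise as large as that of JUNB but no fall as large as that of FOS. With GC and length trends taken out the log2 change was -0.02. FOSL2, the remaining FOS family gene, was the most abundant by count, at 544 ± 3.60 CPM in rhSP-D and 556 ± 4.02 CPM in vehicle (SD, n = 3 each), and did not pass (log2 change -0.03 ± 0.02 SE, edgeR adjusted p = 0.296).

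JUN and JUNB encode the zipper partners of the FOS proteins, JUN being the stronger activator and JUNB often opposing it. JUN (ENSG00000177606, chromosome 1, 58780788 to 58784327, minus strand) had 121, 118 and 115 CPM in rhSP-D and 121, 124 and 123 CPM in vehicle. The highest rhSP-D sample fell just short of the lowest vehicle sample, at 120.9 and 121.0 CPM, and the log2 change of -0.06 ± 0.03 (SE, edgeR adjusted p = 0.212) had an interval from -7.92% to 0.263%. JUNB (ENSG00000171223, chromosome 19, 12791496 to 12793315, plus strand) had 348, 349 and 346 CPM in rhSP-D, against 317, 327 and 322 CPM in vehicle. All rhSP-D samples were above all vehicle samples, with a log2 change of 0.11 ± 0.02 (SE, edgeR adjusted p = 4.20e-04). JUND, the third JUN gene, stood at 193 ± 3.16 CPM in rhSP-D and 186 ± 6.88 CPM in vehicle (SD, n = 3 each) and did not pass (log2 change 0.05 ± 0.03 SE, edgeR adjusted p = 0.183).

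The call on JUNB ended when trends on the GC content and the length of transcripts were taken out together; GC content alone was not tested. Over the 96.8% of tested genes with a GC value the median log2 change climbed from -0.08 for transcripts under 40% GC to 0.08 for those of 65% or more, and JUNB is the most GC-rich of the 10, at 64.9%. Among 1736 genes between 60 and 65% GC the median log2 change was 0.07 and 18.0% rose. When trends on GC content and exon length were removed from each library, JUNB stood at a log2 change of -0.008 (edgeR adjusted p = 0.876) with no call. JUN then passed at -0.12 (edgeR adjusted p = 0.00684), EGR1, FOS and FOSB still fell, at log2 changes of -0.23, -0.20 and -0.16, and IER3 was still higher, at 0.16 (edgeR adjusted p = 0.00183).

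**Figure D2:**
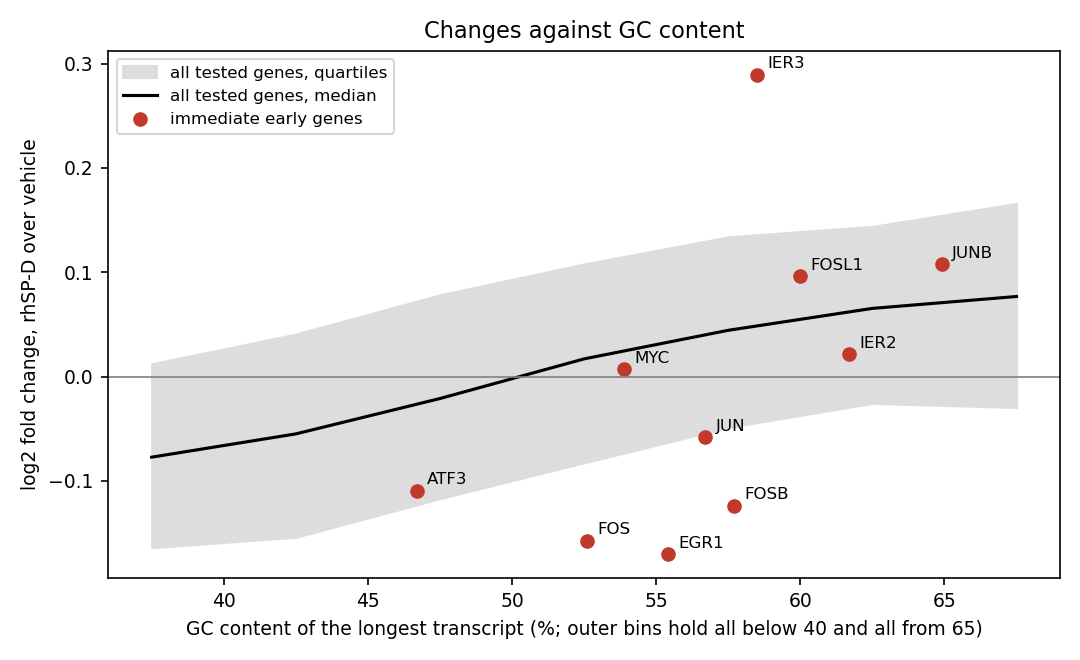
Log2 fold change of rhSP-D over vehicle against the GC content of the longest transcript, with the median and quartiles of all tested genes in 7 bins of GC content and the 10 immediate early genes as points. JUNB lies within the quartiles of genes of like GC content, EGR1, FOS and FOSB lie below them, JUN lies at the lower quartile and IER3 lies above.

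ATF3 encodes a stress-induced zipper protein that represses many AP-1 and ATF sites, its own promoter included. It was the least abundant of the 10 (ENSG00000162772, chromosome 1, 212565334 to 212620777, plus strand), with 12.7, 11.5 and 14.6 CPM in rhSP-D and 13.2, 14.3 and 14.2 CPM in vehicle. The rhSP-D samples spanned both sides of the vehicle samples, and the log2 change of -0.11 ± 0.09 (SE, edgeR adjusted p = 0.477) had an interval from -18.5% to 5.44%. ATF4, an upstream activator of ATF3 in the integrated stress response, rose by 8.19%, to 557 ± 6.95 CPM in rhSP-D, against 515 ± 9.98 CPM in vehicle (SD, n = 3 each, edgeR adjusted p = 9.37e-05). That call too ended once the GC and length trends were removed (log2 change 0.03, edgeR adjusted p = 0.364).

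IER3 and IER2 are named for their speed of induction, and IER3 is not itself a DNA-binding transcription factor. IER3, also known as IEX-1, is a target of NF-kB and p53 that modulates ERK signalling and cell survival. Its gene (ENSG00000137331) is short and lies in the class I region of the major histocompatibility complex on chromosome 6, at 30743199 to 30744554 on the minus strand. IER3 had 148, 164 and 157 CPM in rhSP-D, against 125, 129 and 128 CPM in vehicle. The groups were far apart, the lowest rhSP-D sample being 15.3% above the highest vehicle sample, and the log2 change of 0.29 ± 0.03 (SE, n = 3 per group, edgeR adjusted p = 1.86e-07) was farther from 0 than that of the other 9. Its interval ran from 16.8% to 27.9%. With GC and length trends taken out its log2 change was 0.16, nearer to 0 than those of EGR1, FOS and FOSB. IER2 (ENSG00000160888, chromosome 19, 13150415 to 13154908, plus strand), a nuclear protein induced by serum, had 232, 230 and 229 CPM in rhSP-D and 222, 231 and 226 CPM in vehicle. Those groups overlapped, with a log2 change of 0.02 ± 0.02 (SE, edgeR adjusted p = 0.608) and an interval from -1.83% to 4.95%; the log2 change was -0.02 when scaled by library totals and -0.06 with GC and length trends taken out.

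Reads of genes on the opposite strand cannot be told apart from those of 3 members if strand was not counted. Exons of IER3-AS1 overlap 359 of the 1356 exonic bases of IER3, and this antisense RNA had 145 to 188 counts in rhSP-D samples and 74 to 137 in vehicle samples, without passing (log2 change 0.17, edgeR adjusted p = 0.410). HOOK2 overlaps 259 of 1820 exonic bases of JUNB and did not pass either (edgeR adjusted p = 0.935). The long non-coding RNA AC011446.2 overlaps 946 of 3072 exonic bases of IER2 and had at most 22 counts in a sample.

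MYC encodes the factor that drives growth and ribosome production in dividing cells, as a dimer with MAX. MYC (ENSG00000136997, chromosome 8, 127735434 to 127741434, plus strand) had 113, 116 and 120 CPM in rhSP-D and 115, 117 and 115 CPM in vehicle. The vehicle samples lay inside the range of the rhSP-D samples, and the log2 change was 0.007 ± 0.03 (SE, edgeR adjusted p = 0.920), or -0.03 when scaled by library totals and -0.05 with GC and length trends taken out. Its interval, from -3.83% to 4.97%, leaves out a change as large as that of EGR1 or FOS. MAX stood at 36.0 ± 0.662 CPM in rhSP-D and 33.4 ± 1.09 CPM in vehicle (SD, n = 3 each) and did not pass (log2 change 0.11 ± 0.05 SE, edgeR adjusted p = 0.130).

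**Figure D3:**
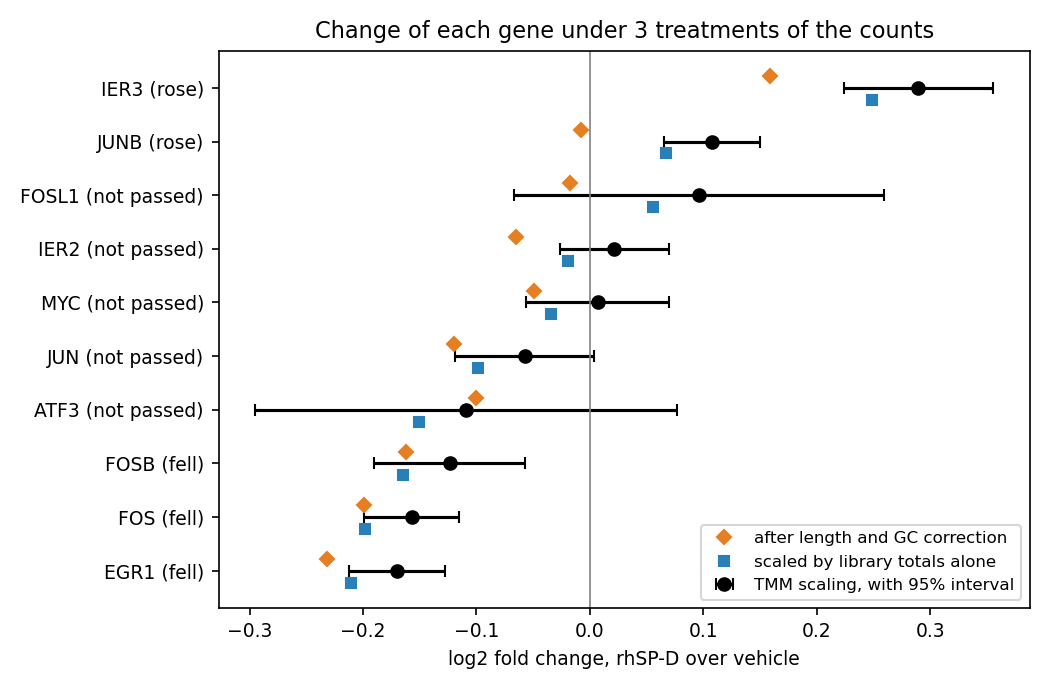
Log2 fold change of rhSP-D over vehicle for each immediate early gene, as black points with 95% intervals from the edgeR fit, with orange diamonds after correction for length and GC and blue squares with scaling by library totals alone. EGR1, FOS and FOSB stay below 0 and IER3 stays above 0 in all 3, while JUNB moves to -0.008 after the correction.

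Ratios of 2 genes within a library do not depend on how libraries are scaled, and 6 such ratios were computed, chosen after the values of the single genes had been seen. The ratio of JUNB to FOS counts was 1.001, 0.991 and 0.997 in the rhSP-D libraries, against 0.830, 0.834 and 0.825 in the vehicle libraries. The separation between the groups was many times the spread within either, and the mean ratio was 20.2% higher in rhSP-D. The ratio of IER3 to EGR1 was 0.373, 0.404 and 0.387 in rhSP-D and 0.268, 0.291 and 0.284 in vehicle, or 38.1% higher. JUNB to JUN averaged 2.945 ± 0.063 in rhSP-D and 2.62 ± 0.0082 in vehicle, and IER3 to IER2 0.678 ± 0.037 in rhSP-D and 0.561 ± 0.0056 in vehicle (SD, n = 3 each), again without overlap. By contrast EGR1 to FOS averaged 1.15 ± 0.012 in rhSP-D and 1.17 ± 0.044 in vehicle, and FOSB to FOS 0.299 ± 0.0058 in rhSP-D and 0.292 ± 0.0069 in vehicle, with groups that overlapped. Since most of the pairs set a gene that rose against one that did not, the ratios are a description, with no test. With GC and length trends taken out the gap between the log2 changes of JUNB and FOS was 0.19, against 0.26 before.

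**Figure D4:**
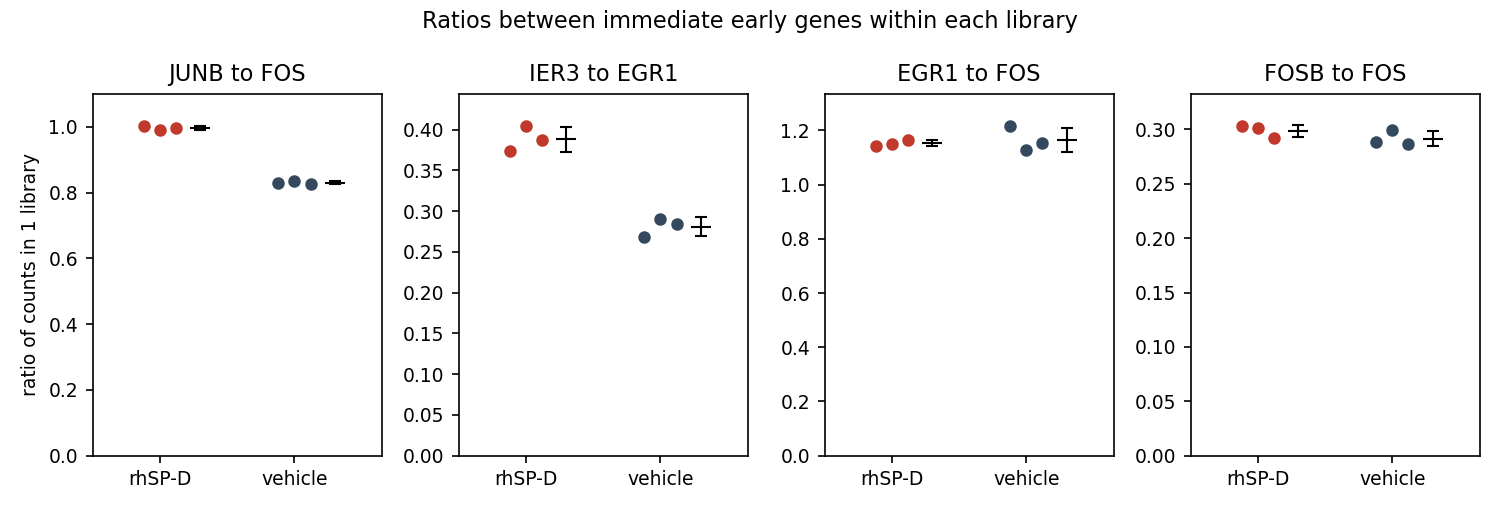
Ratio of counts of 2 immediate early genes within each library, rhSP-D left and vehicle right in each panel, with bars for the mean and SD of 3 libraries and axes from 0. JUNB to FOS and IER3 to EGR1 are higher in every rhSP-D library, while EGR1 to FOS and FOSB to FOS overlap.

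Levels were compared between genes as CPM per kb of merged exons. In rhSP-D the order from high to low was JUNB (191 ± 1.05), EGR1 (128 ± 1.31), IER3 (115 ± 5.60), FOS (108 ± 1.02), IER2 (range 74.55 to 75.62), MYC (38.8 ± 1.18), JUN (33.4 ± 0.811), FOSB (18.8 ± 0.480), FOSL1 (9.92 ± 0.786) and ATF3 (3.19 ± 0.381 CPM per kb, SD, n = 3). In vehicle the order was the same except that FOS, at 120 ± 1.701 CPM per kb, stood above IER3, at 93.9 ± 1.67 CPM per kb. No 2 neighbours in either order had overlapping samples. The place of FOS depends on the length used: per kb of the longest transcript it was at 162 CPM per kb in rhSP-D and 180 CPM per kb in vehicle, above EGR1 and IER3 in both groups and, in vehicle, also above JUNB, at 177.1 CPM per kb.

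Within the FOS family, per exon length, FOS made up 50.7 ± 0.147% in rhSP-D and 52.8 ± 0.368% in vehicle, and FOSL2 35.8 ± 0.209% in rhSP-D and 34.1 ± 0.238% in vehicle (SD, n = 3 each). FOSB held 8.83 ± 0.161% in rhSP-D and 8.98 ± 0.259% in vehicle, and FOSL1 4.66 ± 0.313% in rhSP-D and 4.10 ± 0.390% in vehicle. Of the JUN family JUNB made up 58.3 ± 0.422% in rhSP-D and 56.8 ± 0.964% in vehicle, and JUN 10.2 ± 0.168% in rhSP-D and 11.1 ± 0.176% in vehicle. JUND held 31.6 ± 0.360% in rhSP-D and 32.1 ± 1.14% in vehicle. Among these 7 shares those of FOS, FOSL2, JUNB and JUN reached the smallest p that an exact permutation test of 3 against 3 allows, 0.10, and the other 3 gave p = 0.20 to 0.60. The JUNB groups parted narrowly, at 57.81% in rhSP-D replicate 1 and 57.74% in vehicle replicate 2. The shares were not recomputed with GC and length trends taken out. The most abundant member of each family, FOS and JUNB, was the same in both groups.

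Related genes were counted from 7 lists. Over all genes tested 9.31% rose and 6.63% fell, and at 100 CPM or more 51.4% changed. Of 29 other immediate early genes tested 4 rose and 8 fell, with a median log2 change of -0.04; of the 12 at 100 CPM or more 7 changed. IER5, a relative of IER2, rose by 15.6%, to 74.9 ± 1.60 CPM in rhSP-D, against 65.3 ± 3.47 CPM in vehicle (SD, n = 3 each, edgeR adjusted p = 3.66e-04). GADD45B, a stress sensor induced by NF-kB and TGF-beta, rose by 11.8%, a call that ended with those trends taken out (log2 change 0.06, edgeR adjusted p = 0.267). CCN2, a matricellular growth factor, fell by 13.6%, to 75.1 ± 1.02 CPM in rhSP-D, against 87.0 ± 4.36 CPM in vehicle (SD, n = 3 each).

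Genes upstream of the immediate early response were counted as well. Of 6 genes of serum response factor and its cofactors 2 fell and none rose, with a median of -0.08, beside 6.63% of all genes tested that fell. MRTFB, an actin-regulated coactivator, fell by 20.4%, to 20.8 ± 1.03 CPM in rhSP-D, against 26.2 ± 1.11 CPM in vehicle (SD, n = 3 each, edgeR adjusted p = 5.46e-04). ELK4, an ERK-regulated partner of serum response factor, fell to 37.1 ± 1.81 CPM in rhSP-D, against 41.9 ± 0.611 CPM in vehicle (SD, n = 3 each, edgeR adjusted p = 0.0177), and that call ended once the trends were taken out (log2 change -0.07, edgeR adjusted p = 0.452) and without vehicle replicate 1 (-0.16), vehicle replicate 3 (-0.17) or rhSP-D replicate 3 (-0.13). SRF itself was at 49.8 ± 1.17 CPM in rhSP-D and 47.2 ± 0.843 CPM in vehicle and did not pass (edgeR adjusted p = 0.270). Of 6 tested EGR relatives and regulators 1 fell, SP1, which binds GC boxes, by 11.5%; with the trends taken out its log2 change was -0.11 (edgeR adjusted p = 0.0902). NAB1 and NAB2, corepressors of EGR proteins, did not pass, at log2 changes of -0.12 and 0.20 (edgeR adjusted p = 0.270 and 0.138). EGR2 and EGR3 had 6 to 16 counts a sample, too few for a change of the size of EGR1's to be detectable. Among 19 tested partners of AP-1 and related zipper genes only ATF4 passed, with a median of 0.04 for the list.

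Genes known as targets of AP-1 and MYC were counted next. Of 13 tested AP-1 targets 7 rose and 1 fell, with a median log2 change of 0.10, beside 9.31% of all genes tested that rose and a median of -0.006. Of the 10 targets at 100 CPM or more 6 changed, beside 51.4% of all such genes, and 4 of the 7 rises ended in at least 1 alternative. A further 5 genes of the list, all matrix metalloproteases, were too scarce to test. HMOX1, which degrades heme, rose by 18.5%, to 222 ± 4.78 CPM in rhSP-D, against 187 ± 1.81 CPM in vehicle (SD, n = 3 each, edgeR adjusted p = 3.12e-08). TIMP1, an inhibitor of metalloproteases, rose by 15.6%, with a log2 change of 0.21, and of 0.09 with the trends taken out. The gene of this list that fell was EZR, by 11.5%. Several of these genes also answer to TGF-beta, NRF2 or cytokines.

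Of 20 MYC targets 6 rose and 1 fell, with a median log2 change of 0.05. All 7 were among the 15 targets at 100 CPM or more, a level at which 51.4% of all genes changed, and 3 of the 6 rises ended in at least 1 alternative. The gene that fell was ODC1, the first enzyme of polyamine synthesis (log2 change -0.12), a call that ended without vehicle replicate 2 (-0.08) or rhSP-D replicate 1 (-0.09). FBL, the methyltransferase of ribosomal RNA, rose by 14.3%, to 389 ± 4.07 CPM in rhSP-D, against 341 ± 7.10 CPM in vehicle (SD, n = 3 each, edgeR adjusted p = 1.15e-07). LDHA and NPM1 rose by 8.06% and 7.25%. Of 13 tested partners and antagonists of MYC 1 rose and 2 fell. MYCBP2, a large ubiquitin ligase named for binding MYC, fell by 15.6%, a call that ended with the trends taken out (log2 change -0.15, edgeR adjusted p = 0.0848). The MAX partner MGA fell by 12.2% (edgeR adjusted p = 0.0470), a call that ended in 11 of 17 alternatives, among them leaving out any library but vehicle replicate 2 (log2 changes -0.14 to -0.20). MXD4, a MAX-binding repressor, rose by 12.7%, and did not pass without vehicle replicate 2 (log2 change 0.13), rhSP-D replicate 1 (0.15) or rhSP-D replicate 3 (0.15), or when scaled by library totals (0.13). Over the 7 lists 34 of 106 tested genes changed, beside 15.9% of all genes tested, and at 100 CPM or more 21 of 46 did, beside 51.4%. Of the 34, 19 were higher and 15 lower; when scaled by library totals 11 were higher and 21 lower. The call held in every alternative run for 13 of the 34.

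**Figure D5:**
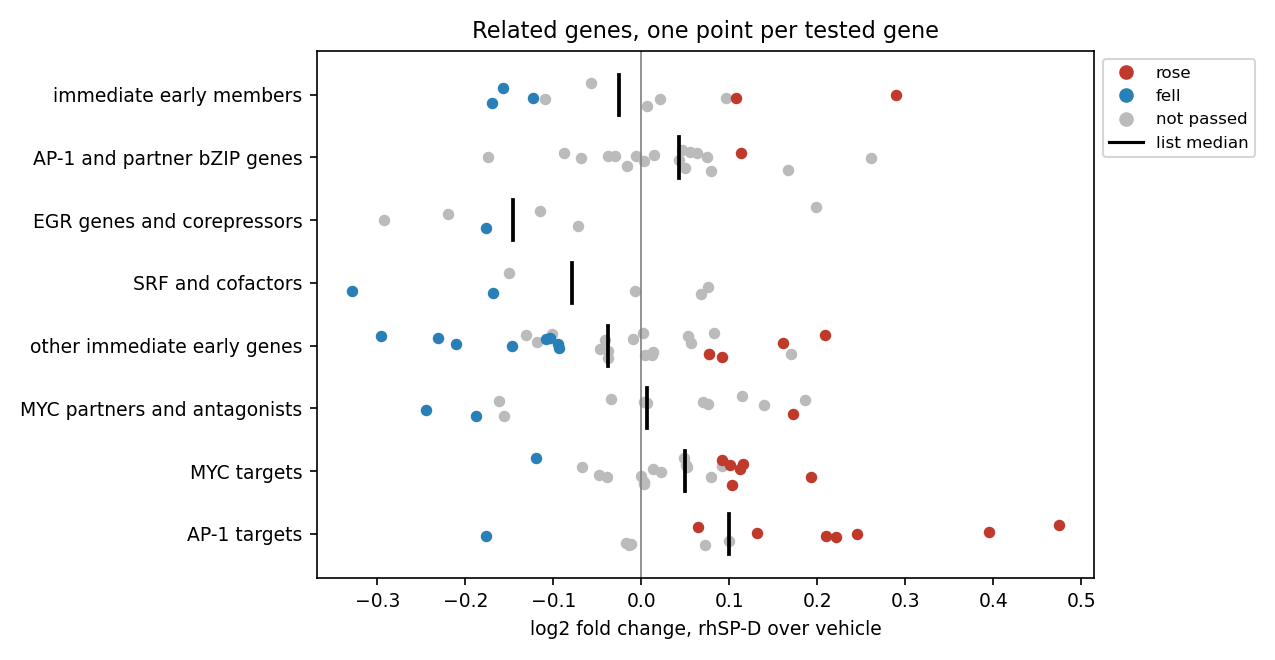
Log2 fold change of rhSP-D over vehicle for each tested gene of the immediate early members and 7 related lists, with red points for genes that rose, blue for genes that fell, grey for genes that did not pass and a bar at the list median. AP-1 targets have the highest list median, 0.10, and EGR genes and corepressors the lowest, -0.15 over 6 genes. All medians are from the fit without the GC and length correction. The EGR list includes EGR2 and EGR3, with 6 to 16 counts a sample.

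IER3, the member with the smallest p, was compared with all other genes of at least 10 CPM by the root mean square distance of centred log2 CPM over the 6 samples. The nearest of 9804 genes were SRSF8, a splicing factor, at a distance of 0.0263, IRF1, an interferon-induced transcription factor, at 0.0316, and LRFN1, a synaptic adhesion gene, at 0.0339. SRSF8 was at 26.7 ± 1.18 CPM in rhSP-D and 22.2 ± 0.740 CPM in vehicle, IRF1 at 26.8 ± 0.897 CPM in rhSP-D and 22.6 ± 0.597 CPM in vehicle, and LRFN1 at 22.01 ± 1.25 CPM in rhSP-D and 17.5 ± 0.451 CPM in vehicle (SD, n = 3 each). The distance includes the difference between the groups.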

How the data were processed

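Poly(A) RNA of 6 A549 samples was sequenced with paired ends, per the labels' protocols. The authors deposited whole-number counts per Ensembl gene, not normalized; the submitters' processing notes name GRCh38 (hg38), featureCounts 2.0.0, STAR 2.7.0a and cutadapt. Which annotation was counted, whether strand was used and how multi-mapping reads were handled is not given in the sources used here. Unstranded counting could mix overlapping genes or leave out the reads they share. Counts of short, GC-rich transcripts can vary with library preparation. Whether the GC and length trends came from preparation or from rhSP-D was not tested, and the correction removes them in either case.

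Samples were grouped by title, and no source used here says that replicates were separate cultures, so p-values measure a spread that may be technical (biological coefficient of variation 2.51%). No library repeated another: pairs of libraries gave a chi-square per degree of freedom of 1.90 to 2.13 in the same group and of 3.71 to 5.77 across groups. Total counts were 11396193 to 26030880.

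Counts were fitted with edgeR 4.0.16 in R 4.3.3: filterByExpr (minimum count 10, minimum total 15), TMM factors and a robust quasi-likelihood test, 2-sided, with Benjamini-Hochberg adjustment over 15848 genes and calls at 0.05. CPM use the TMM-scaled library size, SEs come from the test statistic, and 95% intervals cover the fitted spread only. Coordinates, exon lengths and transcript GC are from GENCODE 29, which need not be the authors' annotation and holds 52338 of the 57773 identifiers. The GC and length correction fits to each library natural splines (5 degrees of freedom) and enters them as offsets. Exact permutation tests used scipy 1.17.1. The procedure was tested on simulated data, where small changes were recovered only in part and the share of false calls lay above 0.05.

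The members, the lists and the tests were chosen with earlier results of these data known. Of 146 list entries 145 were matched, 5 of them by current symbol because the table uses an older one. Named were all members, FOSL2, JUND, EGR2, EGR3, NAB1, NAB2, SRF and MAX, the 3 changed genes with the smallest p of each related list, and the 3 genes nearest to the member with the smallest p. EZR, ODC1 and IER5L were named after their values were seen, and so were the 6 ratios. The genes with printed promoters were chosen by their calls. Alternatives were 3 other scalings, 2 other filters, a replicate block, the length and GC correction with and without that block, libraries thinned to the depth of the shallowest, DESeq2 1.42.0, limma-voom (limma 3.58.1), a threshold of 0.01, and each library left out in turn. Some genes of the lists are counted but not reported here by name.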

Additional observations from a re-analysis of the deposited data

How the results depend on the processing

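The count of changed genes over the whole table, 2526, was 1509 with the length and GC correction, 1371 with that correction and a replicate block, 1527 when libraries were thinned to one depth, 1534 with DESeq2's Wald test and 1465 at an adjusted p under 0.01; it ran from 1678 (without rhSP-D replicate 1, the deepest library) to 2182 with 1 library left out. Of the 10 immediate early genes 4 to 6 changed in each alternative, against 5, with 4 without vehicle replicate 2 or rhSP-D replicate 3, where FOSB did not pass. EGR1, FOS and IER3 kept direction and call in all 17 alternatives, at log2 changes of -0.23 to -0.15, -0.20 to -0.15 and 0.16 to 0.33. JUNB turned to -0.0079 with the length and GC correction and to -0.0051 when the replicate block was added, with no call in either. JUN passed with library totals alone (-0.10) and with the correction, with or without the block. IER5L, a relative of IER5 named here only because it turned, was at -0.0057 with the correction and the block.

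Replicate numbers did not pair the samples: deviations of same-numbered samples correlated at -0.09, -0.07 and 0.03 over genes. With the replicate block 2319 genes and the same number of members, 5, changed; with 3 pairs not every sample correlated best with its own number. Family shares kept their direction with other lengths or raw counts. They were not recomputed with the length and GC correction, which took the JUNB log2 change from 0.11 to -0.008. With 1 library left out, the difference of the FOSB share (-0.144 percentage points, rhSP-D minus vehicle) ran from -0.225 to 0.0052 (above 0 without vehicle replicate 2) and that of JUND (-0.505) from -1.047 to 0.087 (above 0 without vehicle replicate 1); that of JUNB (1.46) ran from 0.968, without vehicle replicate 1, to 1.93. Depth limits FOSL1 and ATF3, whose counting error alone is 5.41% and 6.29% of the level, and EGR2 and EGR3.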
